A study of Mus musculus with 313 samples.

Results

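Of the 100 assays of a gene expression panel, 5 receptor assays were described here across single precursor cells of mouse fetal liver: Il1rl1, Il17rb, Il18r1, Il23r and Il1r1. They were chosen by name and with earlier results of these data known, as receptors on the panel for interleukins that activate innate lymphoid cells (ILCs) at barrier surfaces. Other interleukin receptor chains on the panel are set beside them at the end. ILCs are lymphocytes without rearranged antigen receptors, and each subset answers a different set of tissue cytokines. Il1rl1 encodes ST2, the receptor for IL-33, and Il17rb encodes a receptor chain for IL-25; both cytokines activate group 2 ILCs. Il18r1 encodes the binding chain of the IL-18 receptor, best known from group 1 ILCs and natural killer cells. Il23r and Il1r1 encode receptors for IL-23 and IL-1, the activating cytokines of group 3 ILCs and lymphoid tissue inducer (LTi) cells. The 5 genes lie on 3 chromosomes: Il1r1, Il1rl1 and Il18r1 belong to 1 cluster of IL-1 receptor family genes on mouse chromosome 1, with Il1rl2 between Il1r1 and Il1rl1 and with Il18rap next to Il18r1, while Il23r is on chromosome 6 and Il17rb on chromosome 14. Neither Il1rl2 nor Il18rap was among the 100 assays.

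All cells came from pooled livers of embryonic day 15 fetuses and had been sorted as lineage-negative, IL7Rα-positive and α4β7-positive; neither the mouse strain nor the number of fetuses is given in the labels. The α4β7+ lymphoid precursors (aLP) lacked PLZF and CXCR5, the ILC precursors (ILCP) carried PLZF, the protein of Zbtb16, and the LTi precursors (LTiP) carried CXCR5 without PLZF. Each cell's transcripts were read by multiplex quantitative RT-PCR as a Ct, the PCR cycle at which the signal crosses a threshold. A lower Ct means more cDNA. Of 313 cells, 312 were used, in 5 pools of 1 group and 1 sort each: aLP of sorts 2 and 3 (54 and 92 cells), ILCP of sorts 2 and 3 (62 and 90 cells) and 14 LTiP cells, all of sort 3. No label defines the sort, which was read from the 2 or 3 in each cell's name. The pool, not the cell, was the replicate, so p-values measure the spread between 2 pools per group, which may be technical. A transcript was counted as detected at a Ct below 24, and shares carry exact Clopper-Pearson 95% intervals that cover counting error only. Assays differ in efficiency, so shares and Ct values were compared between cells for 1 assay and not between assays.

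Median assays detected per cell were 36.5 and 28 in aLP of sorts 2 and 3, 41 in either ILCP pool and 34.5 in LTiP. Zbtb16 transcripts were present in 93.5% and 96.7% of the ILCP pools, in 11 of 54 and 3 of 92 aLP cells and in 7 of 14 LTiP cells. Cxcr5 transcripts were found in 12 of 14 LTiP cells, but also in 25.9% and 7.61% of aLP cells, a group gated without the protein. Il7r was below Ct 24 in 30.4% to 71.4% of the cells of a pool, although the gate required its protein. Among markers of other cell types, the B cell genes Pax5 and Ebf1 were at 0 in every pool but aLP of sort 3, with 1.09% each. Irf8, the only 1 of 10 myeloid and dendritic markers on the panel, had a mean level of 4.66 and 5.08 cycles above the detection limit in aLP, 2.21 and 1.77 in ILCP and 2.64 in LTiP. The 4 of 6 B cell markers measured were Pax5, Ebf1, Bcl11a and Foxo1. Their summed level was 2.41 and 2.80 in aLP, 3.45 and 2.73 in ILCP and 3.89 in LTiP. Foxo1 made up most of that sum in every pool. Bcl11a was lower in ILCP (0.18 and 0.11) than in aLP (0.62 and 0.45), and at 0.58 in LTiP. The summed level of 2 of 8 T cell markers (Lat and Rag2) was 2.29 and 0.474 in aLP, 2.74 and 2.25 in ILCP and 3.05 in LTiP. Rag2 was at 1.61 and 0.39 in aLP, 0.60 and 0.50 in ILCP and 0 in LTiP, so the LTiP sum was Lat alone. Itga2b, the only 1 of 9 erythroid, megakaryocyte and mast cell markers, was at 0.11 and 0.06, 1.25 and 1.79, and 0. The part of these cell type markers and of the number of detected assays in the receptor results was not tested, except where values for cells with 30 to 44 detected assays are given.

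The receptors fell into different patterns across the 5 pools. Il17rb was found in ILCP cells of both sorts and in 0 aLP and 0 LTiP cells, Il18r1 was found in every pool with its higher shares in ILCP and LTiP, and Il1rl1 was found at low shares in every pool. Il23r was mostly an LTiP transcript, with 4 of its 6 detections in the 14 LTiP cells. Il1r1 gave late Ct values only.

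**Figure D1:**
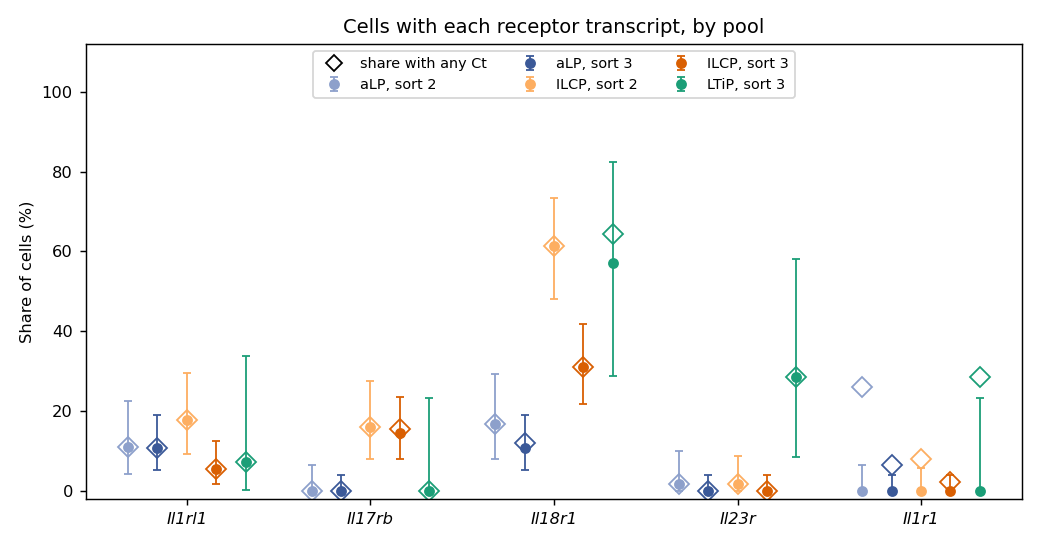
Share of cells (%, y axis) with each receptor transcript (x axis) in the 5 pools. Filled points with exact 95% intervals are shares with a Ct below 24 and open diamonds are shares with any Ct. Il17rb stands at 16.1% and 14.4% in ILCP and at 0 elsewhere, Il23r reaches 28.6% in LTiP, and for Il1r1 only the diamonds leave 0.

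Il17rb was detected in 10 of 62 ILCP cells of sort 2 (16.1%, interval 8.02 to 27.7) and in 13 of 90 of sort 3 (14.4%, 7.92 to 23.4). None was found in the 54 aLP cells of sort 2 or the 92 of sort 3, nor in the 14 LTiP cells; a count of 0 allows shares of up to 5.56%, 3.3% and 21.4% there, the limit that 3 cells give. The ILCP shares of the sorts lay within each other's intervals. The median Ct in detecting ILCP cells was 20.5 in sort 2, with a range of 18.4 to 23.6, and 20.7 in sort 3, with a range of 19.4 to 22.0. A further ILCP cell of sort 3 had a Ct of 24.2, above the limit.

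The share of Il17rb cells was 15.3 ± 1.93 percentage points higher in ILCP than in aLP (difference ± SE, 2 pools per group), and it passed the threshold with an adjusted p of 0.0332 (limma, Benjamini-Hochberg over 91 assays). Of those 91 assays, 14.3% passed in either direction and 12.1% passed as higher in ILCP. With any Ct counted, the difference was 15.8 ± 1.56 points with an adjusted p of 0.0371, where 9.78% of 92 assays passed in either direction. The 5% of cells needed for a test was reached by 3 receptors for Ct below 24 and 4 for any Ct. Of these, Il17rb alone passed between ILCP and aLP. It entered the test through the ILCP pools alone. With both aLP pools at 0, its own spread came from the ILCP pools, and limma moderated that spread with those of all tested assays. The call was lost with the sort as a replicate block (adjusted p 0.100 for Ct below 24 and 0.0973 for any Ct), with cells numbered 97 or higher (0.0943 and 0.0695) and without any 1 of the 4 pools (0.0882 to 0.182 for Ct below 24). In cells with 30 to 44 detected assays the difference was 14.8 points with an adjusted p of 0.0333. The mean level, 24 minus the Ct with undetected cells at 0, differed by 0.51 ± 0.22 cycles, with an adjusted p of 0.209 where 6.59% of 91 assays passed.

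Among Il17rb cells of ILCP, the share of Bcl11b, a zinc finger factor needed for group 2 ILCs, was higher and that of Cxcr5 lower. Both gaps were smaller in sort 3 than in sort 2. Bcl11b was detected in 8 of 10 Il17rb cells of sort 2, against 26.9% of the other ILCP cells, and in 7 of 13 of sort 3, against 28.6%. Cxcr5 was found in 0 of 10 Il17rb cells of sort 2, against 46.2% of the others, and in 3 of 13 of sort 3, against 49.4%. Gata3, the factor group 2 ILCs depend on, was found in 4 of 10 and 6 of 13 Il17rb cells, against 36.5% and 27.3%, with wide intervals (12.2 to 73.8 and 19.2 to 74.9). Rora, also needed for group 2 ILCs, was found in 9 of 10 and 11 of 13 Il17rb cells, against 71.2% and 77.9%. The Bcl11b and Cxcr5 shares rest on the same 10 and 13 Il17rb cells as those of Gata3 and are also imprecise. In sort 3 the Bcl11b shares were close to those of Gata3. Cells of 1 pool are not replicates, so these shares carry no test.

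The 250 bases upstream of the annotated Il17rb start are shown because its transcript was found in ILCP and in no aLP or LTiP cell (RefSeq, GRCm38.p6, chr14:30008897-30009146, minus strand, read 5′ to 3′ along the gene). Neither TGATAA nor AGATAA, letters bound by GATA factors, was in this window on either strand; 16.6% of 32851 mouse promoter windows of this length held at least 1 of them.
Il17rb: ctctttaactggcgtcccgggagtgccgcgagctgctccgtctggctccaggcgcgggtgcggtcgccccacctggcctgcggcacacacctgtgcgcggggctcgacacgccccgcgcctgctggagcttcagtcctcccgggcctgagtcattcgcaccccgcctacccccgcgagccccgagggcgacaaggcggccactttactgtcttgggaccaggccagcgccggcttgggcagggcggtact

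Il1rl1 was detected in 6 of 54 aLP cells of sort 2 (11.1%, interval 4.19 to 22.6) and 10 of 92 of sort 3 (10.9%, 5.34 to 19.1). In ILCP it was detected in 11 of 62 cells of sort 2 (17.7%, 9.20 to 29.5) and 5 of 90 of sort 3 (5.56%, 1.83 to 12.5), and in LTiP in 1 of 14 (7.14%, 0.181 to 33.9). The aLP shares were nearly equal, while the ILCP share was the highest of the 5 pools in sort 2 and the lowest in sort 3. ILCP minus aLP was 6.63 points in sort 2 and -5.31 points in sort 3. The fitted difference was 0.658 ± 5.32 points with an adjusted p of 0.962, and its sign turned in cells with 30 to 44 detected assays (-3.70) and without the ILCP pool of sort 2 (-5.43). Within ILCP, 7 of 52 cells numbered 1 to 96 and 4 of 10 with higher numbers were positive in sort 2, and 3 of 19 cells numbered 1 to 96, 1 of the next 32 and 1 of the last 39 in sort 3.

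Where Il1rl1 was detected, its median Ct was lower in the ILCP pools than in the aLP pools, at 19.5 and 19.9 in aLP of sorts 2 and 3 and 18.1 and 18.3 in ILCP; the LTiP cell had 20.4. Relative to each cell's mean Ct of Actb, Gapdh and Hprt, the medians were 6.55 and 4.96 cycles in aLP and 3.63 and 4.89 in ILCP, so in sort 3 the pools were nearly equal on that scale. The ranges overlapped: 18.2 to 20.8 and 19 to 20.3 in aLP, 16.1 to 19.7 and 17.4 to 19.9 in ILCP. The mean Ct in detecting cells was 19.5 and 19.8 in aLP and 17.8 and 18.8 in ILCP. That difference of 1.38 ± 0.43 cycles did not pass (limma, adjusted p 0.144 over 55 assays). Of these 55 assays, 0 passed at a threshold of 0.05 while 10 had an unadjusted p under 0.05. The fitted mean Ct in detecting cells was lower in ILCP for 78.2% of them.

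**Figure D2:**
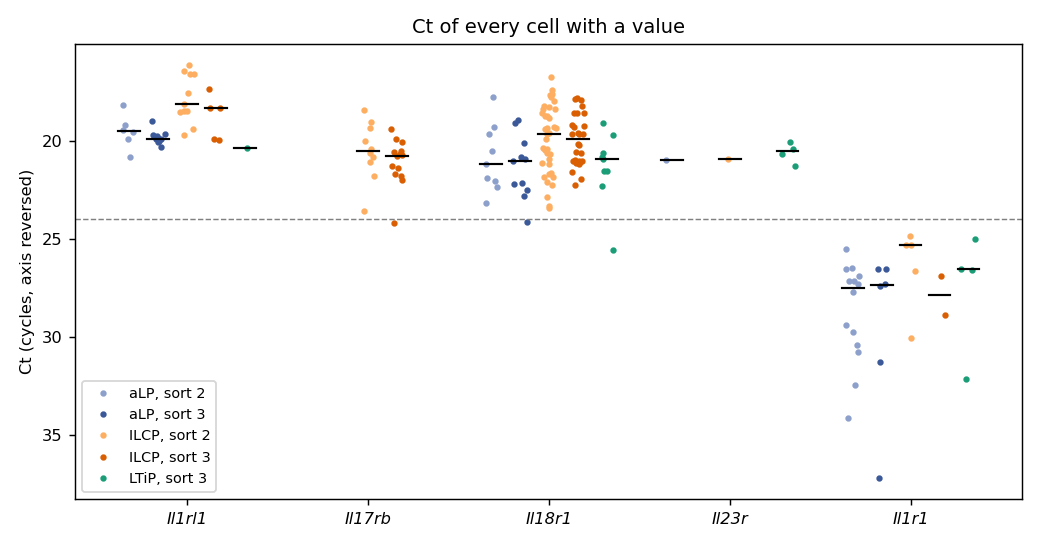
Ct of every cell with a value (y axis in cycles, reversed so that more cDNA is higher) for the 5 receptors (x axis), coloured by pool, with each pool's median as a bar and the detection limit of Ct 24 dashed. Il1rl1 medians are 18.1 and 18.3 in ILCP against 19.5 and 19.9 in aLP, and all 31 Il1r1 values lie below the dashed line, at a Ct of 24.9 to 37.2.

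The genes found beside Il1rl1 followed in part those of the pool. In ILCP, Bcl11b was found in 10 of 11 Il1rl1 cells of sort 2, against 23.5% of the other cells, and in 3 of 5 of sort 3, against 30.6%. Gata3 was found in 7 of 11 of sort 2, against 31.4%, but in 0 of 5 of sort 3, against 31.8%, so the sorts disagreed. Cxcr5 was found in 0 of 11 and 1 of 5, against 47.1% in either sort. In aLP, Bcl11b was found in no cell, and Gata3 in 0 of 6 and 0 of 10 Il1rl1 cells, against 12.5% and 0 of the others. Rora, which encodes a nuclear receptor, was found in 1 of 6 and 0 of 10 Il1rl1 cells of aLP, against 10.4% and 2.44% of the others, and in 10 of 11 and 4 of 5 of ILCP, against 70.6% and 78.8%. Il18r1 was more frequent in the Il1rl1 cells of both aLP sorts than in the others, in 3 of 6 against 12.5% and in 3 of 10 against 8.54%. The Il1rl1 cells of aLP also had slightly more other assays detected, a median of 37 against 35 and 29.5 against 27.5. The part of that in the shares was not tested.

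RefSeq lists 2 Il1rl1 starts, and the 250 bases upstream of each are shown because ILCP cells with this receptor also held Gata3 in sort 2 (GRCm38.p6, plus strand, chr1:40429320-40429569 and chr1:40439379-40439628). Capitals mark GATA-factor letters: AGATAA and, 80 bases before the start, TGATAA in the first window, and TTATCT, which is AGATAA on the opposite strand, in the second. The second window also holds AGGTCA, the half-site letters of ROR receptors. Among 32851 mouse promoter windows of this length, 16.6% held TGATAA or AGATAA and 14.0% held AGGTCA on either strand. A match is a description of the sequence and not a measured site.
Il1rl1 first start: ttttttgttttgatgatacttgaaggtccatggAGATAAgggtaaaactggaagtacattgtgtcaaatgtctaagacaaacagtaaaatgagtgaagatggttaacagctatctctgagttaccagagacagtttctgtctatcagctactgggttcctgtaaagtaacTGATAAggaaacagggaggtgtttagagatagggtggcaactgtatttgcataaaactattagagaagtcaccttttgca
Il1rl1 second start: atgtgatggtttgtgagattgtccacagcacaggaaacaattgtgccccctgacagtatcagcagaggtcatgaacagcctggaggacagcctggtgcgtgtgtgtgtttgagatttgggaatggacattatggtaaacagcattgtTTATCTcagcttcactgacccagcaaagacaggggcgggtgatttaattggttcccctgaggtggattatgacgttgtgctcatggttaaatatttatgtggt

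Il18r1 was detected in 38 of 62 ILCP cells of sort 2 (61.3%, interval 48.1 to 73.4) and 28 of 90 of sort 3 (31.1%, 21.8 to 41.7). In LTiP it was detected in 8 of 14 cells (57.1%, 28.9 to 82.3), and 1 more had a Ct of 25.6. In aLP it was detected in 9 of 54 cells of sort 2 (16.7%, 7.92 to 29.3) and 10 of 92 of sort 3 (10.9%, 5.34 to 19.1). The ILCP shares lay above the aLP shares in both sorts, by 44.6 and 20.2 points, but the ILCP pools differed from each other by more than their intervals. The fitted difference of 32.4 ± 12.8 points did not pass (adjusted p 0.214), nor did the level, at 1.46 ± 0.51 cycles (adjusted p 0.158). The share difference was 18.4 points in cells with 30 to 44 detected assays and 17.3 points without the ILCP pool of sort 2. Among cells with 30 to 44 detected assays, Il18r1 as the only receptor was in 4 of 38 aLP and 16 of 41 ILCP cells of sort 2. In sort 3 it was in 6 of 38 aLP and 9 of 67 ILCP cells. Il1rl1 was beside it in a further 3 of 38 and 2 of 67 cells, and Il17rb in a further 6 of 67. The shares of such cells were thus close in sort 3, and the part of assay number was not tested. Median Ct in detecting cells was 21.2 and 21 in aLP, 19.6 and 19.9 in ILCP and 20.9 in LTiP. The mean Ct in detecting cells was lower in ILCP by 1.04 ± 0.37 cycles (adjusted p 0.210).

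Within aLP, several genes were more frequent among the cells with Il18r1. Tcf7, an early factor of T cells and ILCs, was found in 8 of 9 Il18r1 cells of sort 2, against 9 of the other 45 aLP cells, and in 6 of 10 of sort 3, against 12.2%. Cxcr5 was found in 8 of 9 against 13.3% and in 4 of 10 against 3.66%. Il2rb, the receptor chain shared by IL-2 and IL-15, was found in 6 of 9 against 13.3% and in 7 of 10 against 15.9%. Rora was found in 5 of 9 against 2.22% and in 2 of 10 against 0 of 82. Zbtb16, whose protein the gate excluded, was found in 5 of 9 against 13.3% and in 1 of 10 against 2.44%. Bcl11b and Tbx21, the latter the gene of the group 1 factor T-bet, were found in 0 of 9 and 0 of 10. These Il18r1 cells also gave more detected assays, a median of 39 against 34 other assays in sort 2 and 34.5 against 27 in sort 3, and the part of that in the shares was not tested.

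**Figure D3:**
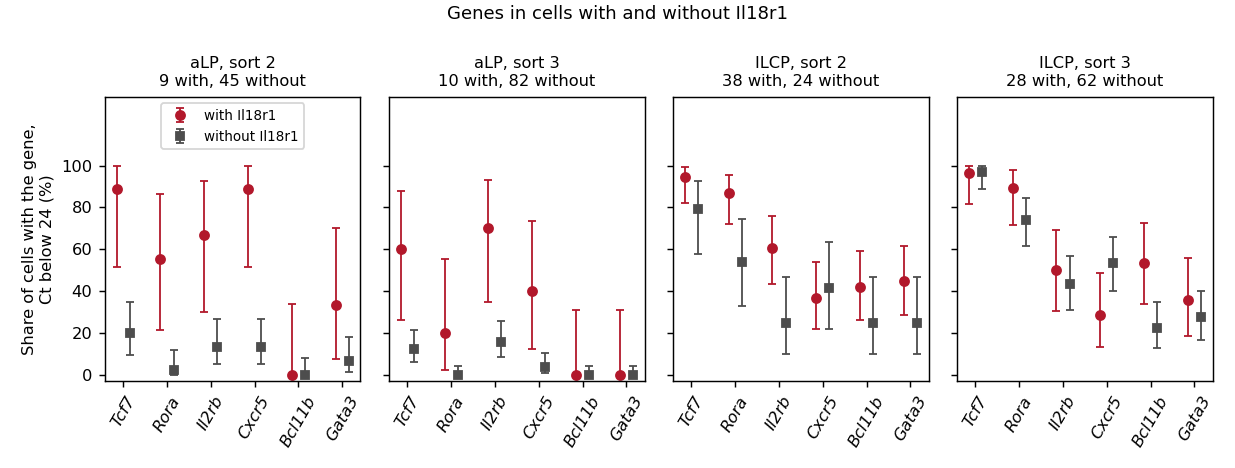
Share of cells (%, y axis) with each of 6 genes (x axis) among cells with Il18r1 (circles) and without it (squares), per pool, with exact 95% intervals. In aLP the circles for Tcf7 (88.9% and 60.0%) stand above the squares (20% and 12.2%), while in ILCP Tcf7 is high in either kind of cell.

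In ILCP, Tcf7 was frequent with and without Il18r1. It was found in 94.7% and 96.4% of Il18r1 cells and in 79.2% and 96.8% of the others in sorts 2 and 3. Tbx21 was found in 39.5% of 38 and 7 of 28 Il18r1 cells, against 20.8% and 11.3%. Il2rb was found in 60.5% and 50.0%, against 6 of 24 and 43.5%. Bcl11b was found in 42.1% and 53.6%, against 6 of 24 and 22.6%, so that the group 1 factor and the group 2 factor both had their higher share in Il18r1 cells. Cd27, a surface marker of natural killer cells and ILC1, was found in 57.9% and 85.7%, against 70.8% and 79%, in opposite order in the sorts. The Il18r1 cells of ILCP had a median of 42 other assays detected in either sort, against 39 and 40 in the others. The part of that in these shares was not tested. In LTiP, Tbx21 and Cd27 were found in 0 of 14 cells, whether or not Il18r1 was there, and Il2rb in 5 of 8 Il18r1 cells and 4 of 6 others.

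Il23r transcripts were present in 4 of the 14 LTiP cells, a share of 28.6% (interval 8.39 to 58.1), at Ct values of 20.1, 20.4, 20.7 and 21.3. In sort 2, 1 of 54 aLP cells (Ct 21) and 1 of 62 ILCP cells (Ct 20.9) were positive. In sort 3, 0 of 92 aLP cells and 0 of 90 ILCP cells were, counts that allow shares of up to 3.3% in each. The LTiP share was thus 28.6 points above either other group within sort 3, and the 6 Ct values ran from 20.1 to 21.3. LTiP has 1 pool, so this comparison has no test. All LTiP cells were numbered 1 to 96.

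Of the 6 Il23r cells, all held Lta and Cxcr5. All 4 LTiP cells held Lta, the gene of lymphotoxin α that LTi cells use to build lymph nodes, against 5 of the other 10, and all 4 held Ahr, a ligand-sensing factor of group 3 ILCs, against 5 of 10. Cxcr5 was in all 4, against 8 of 10, while Cd4 and Tnfsf11, the gene of RANK ligand, were each in 1 of 4, against 5 and 3 of 10. The aLP cell with Il23r held Il18r1, Lta and Cxcr5, and so did the ILCP cell, which held Zbtb16 as well. The 4 LTiP cells split evenly into 2 with Il18r1 and 2 without.

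The 250 bases upstream of the Il23r start are shown as those of the receptor most tied to LTiP (RefSeq, GRCm38.p6, chr6:67491856-67492105, minus strand, read along the gene). Capitals mark the half-site letters of ROR receptors, AGGTCA at 66 bases before the start and TGACCT, the same letters on the opposite strand. Of 32851 promoter windows, 14.0% held AGGTCA on either strand, and 1.12% held the T-box letters AGGTGTGA, which were in none of the 9 windows of the 5 receptors.
Il23r: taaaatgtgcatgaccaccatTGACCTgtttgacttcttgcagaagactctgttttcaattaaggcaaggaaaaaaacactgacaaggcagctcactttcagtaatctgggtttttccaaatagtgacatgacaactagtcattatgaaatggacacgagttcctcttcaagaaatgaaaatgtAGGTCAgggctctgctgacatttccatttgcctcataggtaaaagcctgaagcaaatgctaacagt

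Il1r1 had 31 Ct values and all were at or above 24, so by that limit it was detected in 0 cells. Any Ct was recorded in 14 of 54 aLP cells of sort 2 (25.9%, interval 15 to 39.7), 6 of 92 of sort 3 (6.52%, 2.43 to 13.7), 5 of 62 and 2 of 90 ILCP cells (8.06%, 2.67 to 17.8 and 2.22%, 0.270 to 7.80) and 4 of 14 LTiP cells (28.6%, 8.39 to 58.1). The high pools were aLP of sort 2 and LTiP. ILCP minus aLP was -11.1 ± 8.64 points (adjusted p 0.430), and -1.38 points without the aLP pool of sort 2. That pool also had more late Ct values of other assays, a mean of 2.70 per cell against 0.826 in aLP of sort 3, 1.08 and 0.956 in ILCP and 1.93 in LTiP, and their part in the Il1r1 share was not tested. Within it, cells with Il1r1 had fewer such late values than cells without, a mean of 1.43 per cell against 3.2, while in LTiP they had more (4.0 against 1.1), as in aLP of sort 3 (1.5 against 0.779). Of 5 Il1r1 values below a Ct of 26, 3 came from ILCP of sort 2, where 4 of 5 Il1r1 cells held Il18r1 and 4 of 5 held Lta, against 59.6% and 24.6% of the others. In LTiP all 4 Il1r1 cells held Il18r1 and none held Il23r.

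Single cells held at most 3 of the receptors below Ct 24. In ILCP, 44 of 62 and 35 of 90 cells held at least 1 (71.0% and 38.9%), against 12 of 54 and 17 of 92 in aLP (22.2% and 18.5%) and 10 of 14 in LTiP (71.4%). Cells with 2 or more made up 19.4% and 12.2% of ILCP cells, 4 of 54 and 3 of 92 aLP cells, and 21.4% of LTiP. Among cells with 30 to 44 detected assays, at least 1 receptor was held by 68.3% and 32.8% of ILCP and 28.9% of either aLP pool. The LTiP count was 8 of 10. Cells with 2 or more then made up 17.1% and 11.9% of ILCP, 10.5% and 7.89% of aLP and 3 of 10 LTiP cells. The ILCP and aLP shares of sort 3 were thus nearer to each other in such cells, and the part of assay number was not tested. With any Ct counted, which adds Il1r1, the LTiP share was 50.0% and the aLP shares were 13% and 5.43%. Below Ct 24, all 4 cells with 3 receptors were ILCP cells of sort 2 and held Il1rl1, Il17rb and Il18r1; with any Ct counted, 3 and 1 aLP cells of sorts 2 and 3 and 6 ILCP cells of sort 2 held 3.

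**Figure D4:**
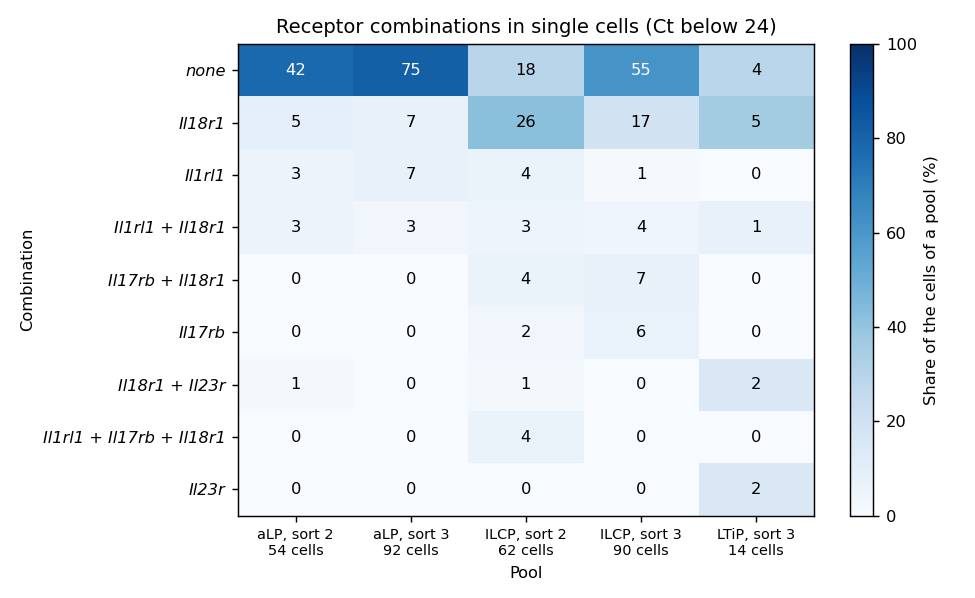
Receptor combinations (rows) in the cells of each pool (columns), at a Ct below 24. Numbers are cells and colour is the share of the pool (%). Il17rb appears only in the ILCP columns, the triple combination only in ILCP of sort 2 (4 cells), and every cell with 2 or more receptors holds Il18r1.

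Below Ct 24, every cell with 2 or more of the receptors held Il18r1; with any Ct counted, 1 aLP cell of each sort held Il1rl1 and Il1r1 without it. Il17rb was found together with Il18r1 in 8 of 10 and 7 of 13 ILCP cells, against an Il18r1 share of 57.7% and 27.3% in the others. Il1rl1 was found with Il18r1 in 7 of 11 and 4 of 5 ILCP cells, against 60.8% and 28.2%. Il1rl1 and Il17rb, the pair of group 2 receptors, met in 4 cells of sort 2, where 4 of 10 Il17rb cells and 13.5% of the others held Il1rl1. In sort 3 they met in 0 of 13 Il17rb cells. Of the 4 triple cells, all held Rora and Bcl11b, 3 held Gata3 and 0 held Lta or Cxcr5, and 1 also held Tbx21. Il23r was never found with Il1rl1 or Il17rb.

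Across ILCP cells, the assays most like each receptor were ranked by phi, the correlation of 2 yes-or-no detections, taken within each ILCP pool and averaged. It describes 62 and 90 cells of 1 pool each, whose detected assays ran from 23 to 55 and from 26 to 53 per cell, and carries no p. For Il18r1, with 56 candidate assays, these were Ltb (0.51; 0.57 in sort 2 and 0.44 in sort 3), Ets1 (0.40; 0.52 and 0.27) and Cxcr6 (0.39; 0.44 and 0.34). Ltb, the gene of lymphotoxin β, was found in 21 of 38 Il18r1 cells of sort 2 and 10 of 28 of sort 3, against 0 of 24 and 2 of 62 of the others. For Il17rb, with 56 candidates, they were Rxrg (0.31; 0.46 and 0.16), Bcl11b (0.30; 0.41 and 0.19) and Igf2 (0.24; 0.31 and 0.17). For Il1rl1, with 57 candidates, they were Bcl11b (0.34; 0.54 and 0.14), Rxrg (0.27; 0.41 and 0.12) and Fbxo27 (0.22; 0.40 and 0.04), all weak in sort 3, where 5 cells were positive. Rxrg encodes a retinoid X receptor, and both group 2 receptors had it and Bcl11b among their first 3. The 2 rankings are not independent. In sort 2, 4 cells were among both the 10 Il17rb and the 11 Il1rl1 cells, and all 4 held Bcl11b. With any Ct counted, Lta took the place of Cxcr6 for Il18r1.

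Set beside the subset gene lists, the receptors moved with their lists unevenly. Of 14 genes listed for group 2 ILCs, 11 were on the panel and 10 were tested for the share below Ct 24. Of these, 5 passed as higher in ILCP (Rora, Bcl11b, Rxrg, Ccr8 and Il17rb) and 0 as lower, where 12.1% of all 91 assays passed as higher. A difference above 0, whether or not it passed, was found in 74.7% of the 91 assays. The median difference of the 10 genes was 21.6 points, or 30.9 without the 2 receptors of the list, against 8.69 over all 91 assays. Bcl11b and Il17rb, at 0 in both aLP pools, and Rxrg, at 1.85% and 0, entered the test through the ILCP pools alone. The lists were chosen with earlier results of these data known. This count and median are therefore a description and support nothing further. With the replicate block, or without any 1 pool, 0 of the 91 assays passed, so each share call in these lists was lost. Il1rl1 was the member of that list with the smallest difference. Of 12 genes for group 1 ILCs and natural killer cells, 7 were tested and 1 passed as higher (Il2rb). Their median was 20.1 points, which includes Il18r1 at 32.4. Of 15 genes for group 3 ILCs and LTi cells, 8 were tested and 0 passed, with a median of 11.6 points, and neither Il23r nor Il1r1 reached the share needed for a test. Of 28 other cytokine receptor subunits, 5 were on the panel and tested, with a median of 7.09 points. Il2rb alone passed as higher (24.2 ± 1.88 points, adjusted p 0.0196 in limma, and 0.0959 for any Ct). Il2ra, the IL-2 receptor α chain, was at 12.9% and 9 of 90 cells in ILCP and 1.85% and 0 in aLP (adjusted p 0.0861).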

How the data were processed

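The Ct values the authors deposited are raw and not normalized, per the file headers, with cells without a Ct entered as missing. Per the labels' protocols, single-cell cDNA was preamplified for 22 cycles and run on a Biomark HD with TaqMan or Solaris assays; no source used here says when a value was set to missing. The sort was read from cell names. Cells needed at least 1 of 4 housekeeping assays and 5 detected assays, which left out 1 aLP cell. The series text speaks of 339 sorted cells and 299 after filtering, while the table used here holds 313. No 2 cells had identical profiles.

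For each pool, the mean level (24 minus Ct, or 0), the share of cells with a Ct below 24 and the share with any Ct were fitted with limma 3.58.1 (R 4.3.3) on the 2 aLP and 2 ILCP pools, with group as the only term. An assay was tested if 5% of the cells of any of the 4 pools detected it, p-values were adjusted by Benjamini-Hochberg over all of them, and the threshold was 0.05. On simulated data, changes of 2 and 4 cycles in the level were recovered in 68.6% and 92.8% of cases over 91 assays. A mean of 0.74 and 1.04 other assays were called falsely. The receptor level differences were smaller, at 0.22 to 1.46 cycles, and shares were not simulated. These rates therefore do not give the power of the receptor tests. Same-numbered pools had deviations with a correlation of -0.047, and with 2 pairs the numbers were not taken to pair the pools. LTiP shares and receptor combinations were described without a test in the main analysis; a fit over all 5 pools was an alternative. A share of 0 carries the limit that 3 cells give.

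Named genes were the 5 receptors, lineage factors tied to them by textbook knowledge, and gate genes. For receptors with at least 5 positive cells in each ILCP pool, the 3 assays with the highest mean phi were named too. Candidates for these were assays found in 10 to 90% of the cells of each ILCP pool. Tcf7, Irf8 and the other genes set beside the Il18r1 cells, and the members of marker lists, were added to the named genes. Members and lists were chosen with earlier results of these data known. Promoter letters came from RefSeq on GRCm38.p6, where all 5 symbols matched. Alternatives varied the detection limit, scaling, cell and assay filters, averaging, the block and the pools included. Figures and counts used Python 3.11.15 with pandas 2.3.3, scipy 1.17.1 and matplotlib 3.10.9.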

Additional observations from a re-analysis of the deposited data

Results flagged for a closer look

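The difference in the share of Il1rl1 cells between ILCP and aLP had opposite signs in the sorts: 6.63 percentage points in sort 2 and -5.31 points in sort 3, both for a Ct below 24 and for any Ct. The difference between the sorts was not tested.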

How the results depend on the processing

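The count of assays that passed between ILCP and aLP changed with the setting. For the level, 6 assays passed. The count was 11 with an assay filter of 20%, 12 and 11 with limits of Ct 26 and 28, 16 with the linear mean, 2 with a replicate block, and 0 in a fit over 5 pools with the block and 0 in detecting cells only, both chosen after the data had been seen, with 21 and 10 assays at an unadjusted p under 0.05 in limma. Leaving out 1 pool gave 0 to 20. For the share below Ct 24, 13 assays passed, against 4 in cells numbered 97 or higher and 8 in cells with 30 to 44 assays. For any Ct, 9 passed, against 2 in cells numbered 97 or higher. With a replicate block, over 4 or 5 pools, 0 passed in either share, with 21 to 24 assays at an unadjusted p under 0.05, and leaving out any 1 pool gave 0 to 0, with 17 to 30 such assays. In these, the Il17rb difference was unchanged by construction with a replicate block, at 15.3 points for a Ct below 24 (adjusted p 0.100, and 0.0963 over 5 pools) and 15.8 points for any Ct (0.0973 and 0.103). It was 17.7 and 18.5 points in cells numbered 97 or higher, and without 1 pool 14.4 to 16.1 and 15.6 to 16.1 points. Il17rb could not be fitted with the 20% filter, which it did not reach. Over all alternatives its adjusted p ran from 0.0287 to 0.182 and from 0.0206 to 0.210.

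The replicate block changed no other receptor's call between ILCP and aLP. The Il1rl1 difference turned sign for the share below Ct 24 and for any Ct with the arcsine transform (-0.0885 degrees for each) and in cells with 30 to 44 assays (-3.70 points for each). Without 1 pool it ran from -5.43 to 6.75 points in both shares and from -0.19 to 0.62 cycles in the level, with the negative values without the ILCP pool of sort 2. Its highest values were 11.4 points in cells numbered 97 or higher and 1.38 cycles in detecting cells. The cause was not tested. Il18r1 kept its sign and did not pass under any alternative run, at 17.3 to 47.5 points for a Ct below 24 (adjusted p 0.0955 to 0.455), 16.8 to 47.0 for any Ct and 0.82 to 2.74 cycles for the level. Il1r1 stayed below 0, at -20.8 to -1.38 points. Il23r in LTiP stood 27.6 to 40.0 points above aLP and 27.8 to 40.0 above ILCP. A limma fit over 5 pools gave it an adjusted p of 0.0333 and 0.0298, and 0.104 and 0.144 with the block, but it rests on 1 LTiP pool, through which alone Il23r entered the test, so it supports nothing. The 14 LTiP cells and the 2 pools per group limit the precision of every value.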
